A study of Mus musculus with 6 samples.

Results

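Lymphocyte genes were examined in one brain hemisphere of aged Bahd1-WT and Bahd1-KO mice. The 10 genes were chosen by name in the deposited table, which lists 53801 genes, and all 10 had a row and passed the filter on low counts. They are Btla, the T cell genes Cd3e, Cd3g and Lck, the B cell genes Cd79a, Cd79b, Ms4a1 and Ighm, and the GTPase genes Gimap4 and Gimap6. The groups were 3 Bahd1+/+ (WT) and 3 Bahd1-/- (KO) mice of the C57BL/6 strain, about 70 weeks old by the labels. The mutation is present in all cells, and since part of the null mutants die around birth according to the paper, the adults are survivors. The hemispheres were frozen in RNAlater without separation of regions or cells. Removal of blood before dissection is not given in the sources used here.

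T and B lymphocytes recognise antigen through receptors that cannot signal alone. The T cell receptor works with the CD3 chains, and the B cell receptor with CD79A and CD79B. The tails of these chains are phosphorylated by kinases of the SRC family, of which LCK acts on those of CD3. BTLA is an inhibitory receptor of lymphocytes and some dendritic cells that binds HVEM, the product of Tnfrsf14, and recruits the phosphatases SHP-1 and SHP-2, encoded by Ptpn6 and Ptpn11. GIMAP proteins are GTPases that take part in the control of lymphocyte survival. Few lymphocytes are found in the healthy brain, mainly in its vessels, meninges and choroid plexus.

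The study lists an RT-qPCR primer pair for Btla, which is shown because it marks the part of the transcript that this assay reads. The paper reports that Btla was lower in Bahd1-KO brains by this assay too. Whether its RNA came from the hemispheres sequenced is not stated there. Both primers matched 1 of the 3 annotated Btla transcripts (ENSMUST00000102802.9, 3251 bases). They lie in its last exon, exon 6, in the 3′ untranslated region, and enclose 176 bases. The forward primer covers chr16:45252324-45252343 and the reverse primer chr16:45252480-45252499 (GRCm38, plus strand gene). The 2 shorter transcripts do not hold both primers, whereas the RNA-seq counts are summed over the exons of the gene. The primers, written 5′ to 3′, are as follows.
Btla forward: cagaattgtctccggcttta
Btla reverse: agggtgcctgactttctctt

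The bases upstream of Btla, Gimap4 and Gimap6 are shown because these were the 3 genes with the lower level in Bahd1-KO brains at an unadjusted p under 0.05. RefSeq promoter windows (GRCm38.p6) were found for 7 of the 10 genes. Each sequence runs 5′ to 3′ on the strand of the gene and stops before its first annotated exon, and capitals mark the ETS core GGAA or its reverse complement. ETS factors are transcription factors used widely in blood cells.
Btla, chr16:45224087-45224314, plus strand: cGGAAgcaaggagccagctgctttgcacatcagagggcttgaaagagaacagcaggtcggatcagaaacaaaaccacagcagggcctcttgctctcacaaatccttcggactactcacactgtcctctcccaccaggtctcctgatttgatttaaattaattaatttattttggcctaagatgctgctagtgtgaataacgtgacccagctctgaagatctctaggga
Gimap4, chr6:48684328-48684548, plus strand: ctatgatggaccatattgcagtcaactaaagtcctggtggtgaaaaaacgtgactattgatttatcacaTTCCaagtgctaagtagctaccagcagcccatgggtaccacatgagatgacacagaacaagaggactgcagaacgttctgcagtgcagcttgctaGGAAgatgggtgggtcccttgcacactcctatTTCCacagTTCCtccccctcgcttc
Gimap6, chr6:48708245-48708494, minus strand: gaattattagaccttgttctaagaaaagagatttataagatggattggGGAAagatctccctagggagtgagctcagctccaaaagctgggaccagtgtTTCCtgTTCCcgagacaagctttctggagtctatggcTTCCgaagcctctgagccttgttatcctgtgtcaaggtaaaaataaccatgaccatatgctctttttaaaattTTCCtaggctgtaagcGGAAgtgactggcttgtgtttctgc

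In the printed bases, on both strands, the ETS core was found 1 time for Btla, 4 times for Gimap4 and 6 times for Gimap6. The searched windows of 250 bases, upstream of the RefSeq start, run on into the annotated gene for Btla and Gimap4 and held 3, 5 and 6 matches. This motif is common, since 93.4% of all 32851 windows hold it at least once. The RUNX motif TGTGGT was found once each for Btla and Gimap4 and not for Gimap6, and in 14.0% of all windows. The core of the interferon response element (GAAA, any 2 bases, GAAA) was in none of the windows of the 7 genes, against 2.98% of all windows. Btla had 4 CpG dinucleotides in its window and Gimap4 and Gimap6 had 3 each, where the median of all windows was 6. These matches describe letters and not binding.

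Library depth ranged from 42297150 to 93557948 counts. Bahd1 had 844 to 1383 counts in the Bahd1-WT libraries and 0 to 14 in the Bahd1-KO libraries, which fits the genotype given for each mouse. The 8 neuron markers summed to 7374 to 10459 CPM (counts divided by the TMM-normalised library size in units of 1e+06). Some libraries stood apart in markers of other tissues. Values below are given in the order of replicates 1, 2 and 3. The 9 lung epithelium markers summed to 119, 27.7 and 2.66 CPM in Bahd1-WT replicates 1, 2 and 3 and to between 0.667 and 1.87 CPM in the Bahd1-KO libraries. The 6 red cell markers summed to 93.1 CPM in Bahd1-KO replicate 2 and to between 11.4 and 31.0 CPM elsewhere. The 10 genes together had 1535 to 4133 counts per library, most of them from Ighm and Gimap6. A level of 3 counts, taken as the smallest that the depth can show, corresponds to 0.0315 to 0.0690 CPM.

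**Figure D1:**
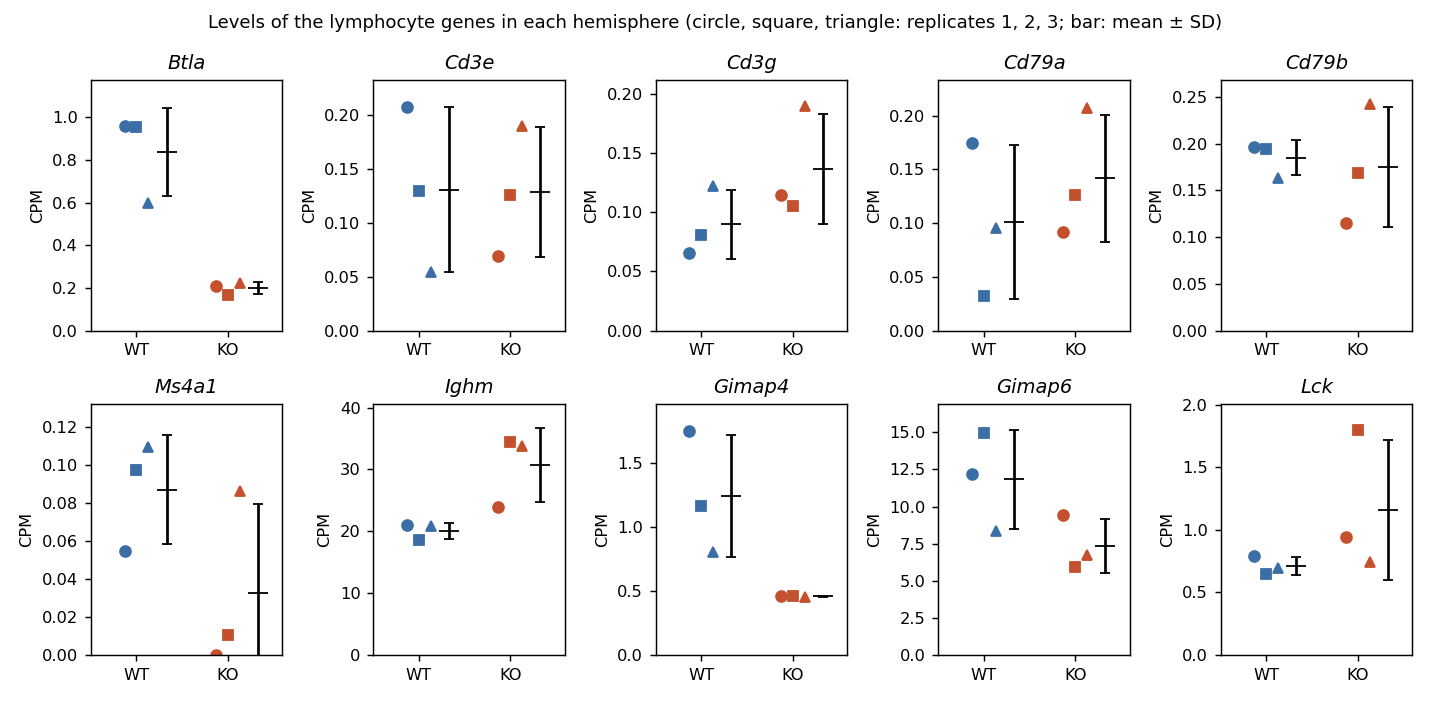
Level of each of the 10 genes in CPM (vertical axes, from 0) in the 3 Bahd1-WT (blue) and 3 Bahd1-KO (red) hemispheres. Symbols are single mice and bars the mean ± SD. The groups stand apart for Btla (0.600 to 0.962 CPM against 0.168 to 0.225 CPM), Gimap4 and Ighm, and overlap for the other 7 genes.

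Btla, the inhibitory receptor (ENSMUSG00000052013, chr16:45224315-45257670, plus strand), showed the largest difference of the 10 genes. The reads of Btla numbered 88, 59 and 44 in Bahd1-WT brains, and fewer, 9, 16 and 13, in those of Bahd1-KO mice. As CPM these were 0.962, 0.956 and 0.600 against 0.207, 0.168 and 0.225. All Bahd1-KO brains lay below all Bahd1-WT brains, and the lowest Bahd1-WT level was 2.67 times the highest Bahd1-KO level. The mean was 0.839 ± 0.207 CPM (SD, n = 3) in Bahd1-WT and 0.200 ± 0.0289 CPM in Bahd1-KO brains. On the log2 scale the difference was -2.08 ± 0.32 (standard error, 95% interval -2.81 to -1.35), or 4.22-fold lower. In edgeR's quasi-likelihood test, two-sided, the unadjusted p was 0.000138 and the Benjamini-Hochberg adjusted p was 0.0634, just above the threshold of 0.05. Only 2 of the 23975 genes tested passed that threshold, 0.00834%, whereas 4.77% were lower with an adjusted p under 0.1. An exact permutation test of 3 samples against 3 cannot give a p below 0.1.

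The Bahd1-WT mice had Btla levels in the order of their lung marker sums, and the part of lung tissue in the difference was not tested. The Btla log2 fold change was -1.97 without Bahd1-WT replicate 1 and -1.60 without replicates 1 and 2. In that last fit, where the lone Bahd1-WT library is assumed to vary like the Bahd1-KO ones, the adjusted p was 0.580. Without Bahd1-KO replicate 2 the log2 fold change was -1.94. Without Bahd1-KO replicate 1, the shallowest library, it was -2.08 with an edgeR adjusted p of 0.00657, which passed the threshold, but in that fit the number of all genes called was 7113. DESeq2, the tool of the study, called Btla when run with its normal prior (adjusted p = 0.000190), and with it 17.1% of all genes. In a bulk sample, fewer cells of a type and less RNA per cell cannot be told apart.

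The GIMAP genes lie together on chromosome 6, Gimap4 on the plus strand (48684549 to 48692060, GRCm38) and Gimap6 on the minus strand (48701582 to 48708225). Gimap4 reads numbered 160, 72 and 59 in Bahd1-WT mice and 20, 44 and 26 in Bahd1-KO mice, or 1.75, 1.17 and 0.804 CPM against 0.460, 0.462 and 0.449 CPM. The Bahd1-KO brains were nearly equal to one another and all below the Bahd1-WT brains. The means were 1.24 ± 0.476 and 0.457 ± 0.00688 CPM (SD, n = 3), with a log2 fold change of -1.44 (standard error 0.33, edgeR adjusted p = 0.0634). The order of the Bahd1-WT replicates was that of their lung marker sums, and the Gimap4 log2 fold change was -0.82 without replicates 1 and 2. The part of lung tissue in this difference was not tested.

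Gimap6, the member with the highest level after Ighm, gave 1115, 925 and 612 reads in Bahd1-WT mice and 409, 567 and 389 in Bahd1-KO mice. The corresponding levels were 12.2, 15.0 and 8.34 CPM against 9.40, 5.95 and 6.72 CPM, so that Bahd1-KO replicate 1 lay above the lowest Bahd1-WT brain. The log2 fold change was -0.69 (standard error 0.28, unadjusted p = 0.0355 and adjusted p = 0.132, edgeR), and the Gimap6 log2 fold change was -0.19 without Bahd1-WT replicates 1 and 2. Per kilobase of exon, Gimap6 was 3.66 to 6.75 times as high as Gimap4 in the Bahd1-WT libraries and 6.77 to 10.7 times in the Bahd1-KO libraries.

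Among the other 6 GIMAP genes, none had an unadjusted p under 0.05 in edgeR's test, against 31.8% of all genes, 4 of 6 were lower, against 53.4%, and the median log2 fold change was -0.25. Gimap8, the most abundant of them, was at 2.58 ± 0.486 CPM in Bahd1-WT and 1.78 ± 0.346 CPM in Bahd1-KO brains (SD, n = 3), a log2 fold change of -0.54, with no overlap. Gimap9 (log2 fold change -0.52) also had all Bahd1-KO brains below all Bahd1-WT brains, and Gimap5 had a log2 fold change of -0.13. With the GC and length offset described below, Gimap8 was at -0.07, Gimap9 at -0.17 and Gimap5 at 0.07.

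Both CD3 chain genes among the 10 were close to the limit of detection. Cd3e, a CD3 chain found in all T cells (chr9:44998740-45009627, minus strand), had 19, 8 and 4 reads in Bahd1-WT brains against 3, 12 and 11 in Bahd1-KO brains. Cd3g, another CD3 chain (chr9:44969572-44980431, minus strand), had 6, 5 and 9 against 5, 10 and 11 counts. The groups overlapped for both genes, and neither had an unadjusted p under 0.05. The log2 fold change was -0.02 for Cd3e (95% interval -1.34 to 1.30) and 0.59 for Cd3g (95% interval -0.53 to 1.72). At this depth a difference of 2-fold in either direction would lie within the interval of Cd3e, whose sign also turned under several other settings. Cd3e shares 135 of its 4080 exon bases with the antisense gene Gm48719, which had 3 to 11 counts per library, and since the counted strand is uncertain, reads from the shared bases cannot be assigned with certainty.

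Lck, the kinase that phosphorylates the CD3 tails (chr4:129548344-129573641, minus strand), gave 72, 40 and 51 reads in Bahd1-WT mice and 41, 171 and 43 in Bahd1-KO mice. Its 1.80 CPM in Bahd1-KO replicate 2 stood above all other libraries, which ranged from 0.648 to 0.942 CPM. The log2 fold change was 0.72 (standard error 0.35, unadjusted p = 0.0715, edgeR), and without Bahd1-KO replicate 2 the Lck log2 fold change was 0.24. That replicate is also the one with the high red cell sum, whose part in the Lck level was not tested. The microRNA gene Mir8119 shares 25 exon bases with Lck on the same strand. Per kilobase of exon and averaged over the 6 libraries, Lck (0.319 CPM per kb) was above Cd3g (0.0346) and Cd3e (0.0317).

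The B cell genes divided into 3 near the limit of detection and Ighm. Cd79a, a signalling chain of the B cell receptor (chr7:24897381-24902197, plus strand), had 16, 2 and 7 reads in Bahd1-WT mice and 4, 12 and 12 in Bahd1-KO mice. Cd79b, its partner (chr11:106311341-106314762, minus strand), had 18, 12 and 12 against 5, 16 and 14 counts. Ms4a1, which encodes the B cell surface protein CD20 (chr19:11249675-11266241, minus strand), had 5, 6 and 8 against 0, 1 and 5 counts, and the 0 in Bahd1-KO replicate 1 allows a level of up to 0.0690 CPM. The groups overlapped for all 3, with log2 fold changes of 0.44 for Cd79a (95% interval -0.95 to 1.82), -0.06 for Cd79b (-0.97 to 0.84) and -1.39 for Ms4a1 (-3.47 to 0.69). Each of these intervals includes 0, and the one of Ms4a1 rests on 25 reads in all. With the GC and length offset described below, Cd79a was at -0.29, Cd79b at -0.73 and Ms4a1 at -0.87, none with an unadjusted p under 0.05.

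Ighm, the constant region of the IgM heavy chain (chromosome 12, 113418558 to 113422730, GRCm38), had the highest level of the 10 genes. Its reads numbered 1915, 1148 and 1523 in Bahd1-WT mice and 1039, 3284 and 1956 in Bahd1-KO mice, or 20.9, 18.6 and 20.8 CPM against 23.9, 34.5 and 33.8 CPM. All Bahd1-KO brains lay above all Bahd1-WT brains, by little in Bahd1-KO replicate 1. The log2 fold change was 0.61 (standard error 0.19, unadjusted p = 0.0121 and adjusted p = 0.0821, edgeR), the only member that was higher at an unadjusted p under 0.05. Several other genes of the B cell receptor were at lower levels. Per kilobase of exon, Ighm was 72.6 to 158 times as high as Cd79b, 30.1 to 70.4 times as high as Ighd, the IgD heavy chain, and 3.80 to 11.2 times as high as Igkc, the kappa light chain, across the 6 libraries. Igkc had a log2 fold change of -0.13 and Ighd of 0.08. Ebf1, a transcription factor on the B cell list, was at a mean of 33.1 CPM over the 6 libraries, or 3.39 CPM per kb against 13.5 CPM per kb for Ighm. The annotation has no other gene over the exons of Ighm.

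Of the 10 genes, 0 had an adjusted p under 0.05 in edgeR's test, against 0.00834% of all genes. DESeq2 called 3 of them, with or without the prior, against 17.1% or 17.2% of all genes. At an unadjusted p under 0.05 there were 4 of 10, against 31.8% of all genes, namely Btla, Gimap4 and Gimap6 at a lower and Ighm at a higher level in Bahd1-KO brains. The groups did not overlap for 3 of the 10 genes, where 39.8% of all genes were separated, 2 of them lower (19.3% of all genes) and 1 higher (20.6%). A log2 fold change below 0 was found for 6 of the 10 genes and for 53.4% of all genes. The median log2 fold change of the 10 genes was -0.04, and of all genes tested -0.06. These shares, all without the offset, lay near those of all genes, so that the 10 genes as a set did not stand apart by these counts. The shares with the offset are given below and lay further from those of all genes at an unadjusted p under 0.05.

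**Figure D2:**
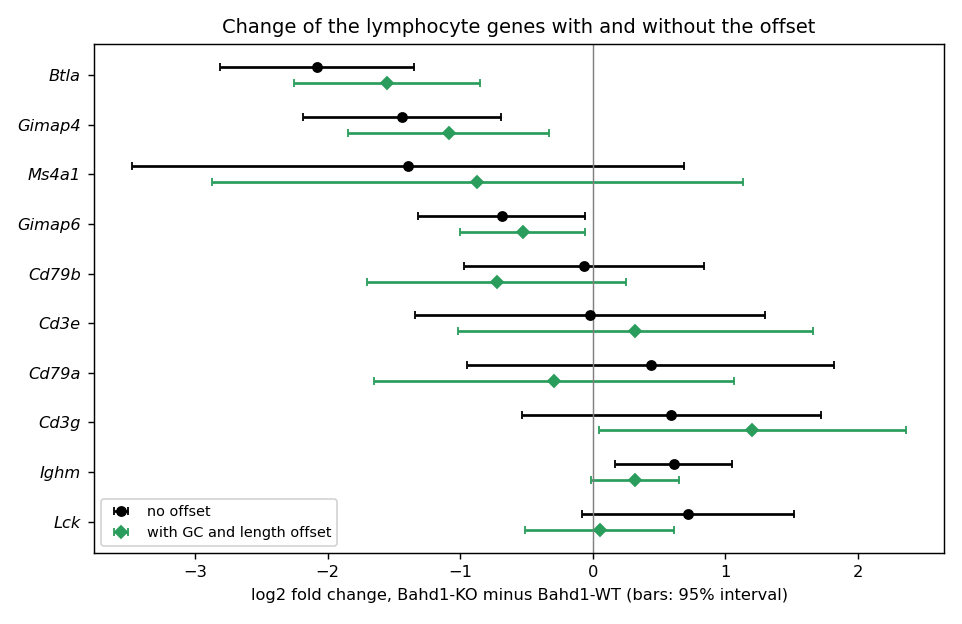
Log2 fold change (horizontal axis, Bahd1-KO minus Bahd1-WT) of each gene in edgeR's fit, with 95% intervals, without (black circles) and with (green diamonds) the GC and length offset. Btla, Gimap4 and Gimap6 lie below 0 with their whole intervals in both fits, and Lck goes from 0.72 to 0.05.

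Across all genes the fold change followed GC content, with a Spearman correlation of 0.745 over 23940 genes, a description across genes that share the same 6 libraries. The GC content of the longest transcript is 40.7% for Btla, 43.3% for Gimap4 and 46.7% for Gimap6, and 51.8% for Ighm, 54.3% for Lck, 54.2% for Cd79b and 54.9% for Cd79a, where the median of all genes tested was 48.7%. An offset was therefore fitted for each library on GC content and length, after which the correlation was 0.057. With it the Btla difference was -1.55 on the log2 scale (standard error 0.31, unadjusted p = 0.000631, adjusted p = 0.0782, edgeR). For Gimap4 it was -1.09 (unadjusted p = 0.00992) and for Gimap6 -0.53 (unadjusted p = 0.0308). Lck was at 0.05, Ighm at 0.32 (unadjusted p = 0.0565), and Cd3g at 1.20 (unadjusted p = 0.0429) on 46 counts in all. With the offset 4 of 10 genes had an unadjusted p under 0.05, against 21.3% of all genes, and 3 of these were lower, against 11.5%. At an adjusted p under 0.05 there were 0 of 10, against 0.0167% of all genes. The log2 fold change was below 0 for 6 of 10 genes and for 57.6% of all genes, and the median was -0.41 for the 10 and -0.06 for all genes. DESeq2 with both the prior and the offset called 2 of the 10, against 8.86% of all genes.

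**Figure D3:**
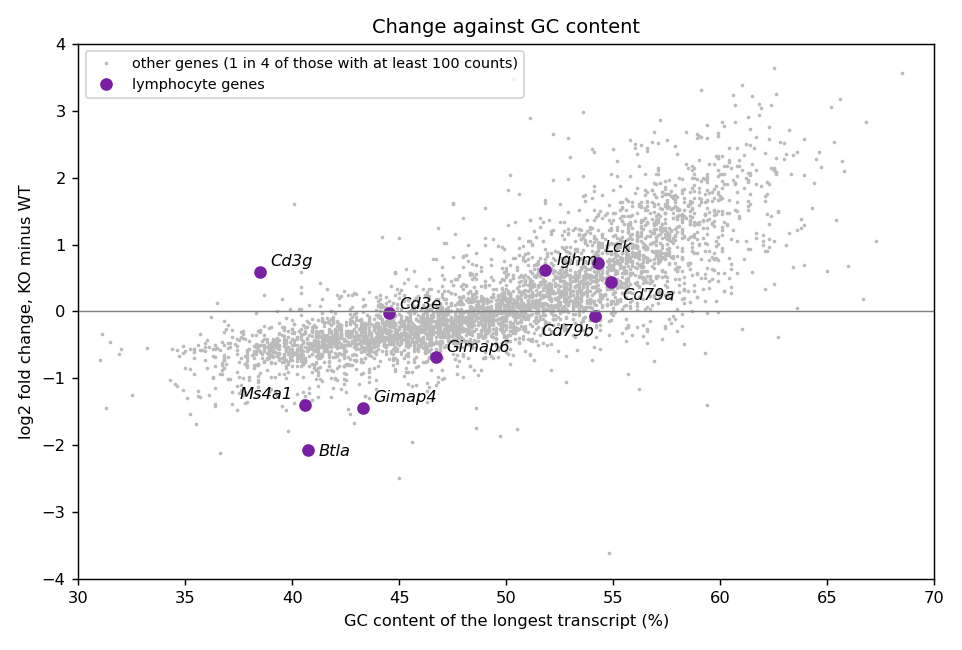
Log2 fold change (vertical axis, Bahd1-KO minus Bahd1-WT) against the GC content of the longest transcript in percent (horizontal axis), for the 10 genes (purple) and 4380 other genes (grey, 13 more lie outside the axes). The grey points lie higher at higher GC content, and Btla (40.7%, -2.08) lies below nearly all grey genes of like GC content, whereas Lck and Cd79a lie among them.

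Further genes of the same pathways were taken from 7 lists. None of these genes had an adjusted p under 0.05 in edgeR's test, and DESeq2 with the prior called 2 of 25 tested T cell genes, 1 of 20 B cell genes, 1 of 14 genes of the BTLA list, 4 of 9 kinases and regulators, 3 of 9 homing genes and 0 of the 6 GIMAP and 10 NK and cytotoxic cell genes, against 17.1% of all genes. Of 25 tested T cell genes, 3 were lower and 3 higher at an unadjusted p under 0.05, which is a smaller share than the 31.8% of all genes, with a median log2 fold change of 0.27. The lower ones were Il7r, the receptor for the survival signal IL-7 (log2 fold change -0.98), Cd28, the costimulatory receptor (-0.87), and Trdc, the constant region of the delta receptor chain (-0.73). The higher ones were Zap70, the kinase that binds phosphorylated CD3 (2.23), Cd6, a surface receptor (1.25), and Trac, the constant region of the alpha chain (0.75). Zap70 had 194 of its counts in Bahd1-KO replicate 2 and 9 to 63 in the other libraries. Cd6 and Trac were higher in all Bahd1-KO brains than in all Bahd1-WT brains, and with the offset their log2 fold changes were 1.42 and 0.75. Trdc was then at -0.56. With the offset Zap70 was at 0.85 (unadjusted p = 0.0570), Il7r at -0.44 (0.230) and Cd28 at -0.38 (0.167), none of them under 0.05. Cd247, another chain of the CD3 complex (1.26, 0.0173), and Cd4, a T cell coreceptor (-0.38, 0.0148), passed with the offset alone, so that 2 genes were lower and 3 higher, against 21.3% of all genes. Cd3d, another CD3 gene, had 4 to 10 counts per library.

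Of 20 tested B cell genes, 1 was higher and 0 lower at an unadjusted p under 0.05, against 31.8% of all genes, and the median log2 fold change was 0.03. The one was Cd37, a tetraspanin of leukocytes with a GC content of 57.3%, at a log2 fold change of 1.30, and of 0.22 with the offset. With the offset 1 gene was higher and 0 lower at an unadjusted p under 0.05, against 21.3% of all genes. It was Blnk (log2 fold change 0.63, unadjusted p = 0.0140, edgeR), which did not pass without the offset (0.36). Another 5 B cell genes, Blk, Iglc1, Iglc2, Iglc3 and Mzb1, had fewer than 10 counts over all libraries.

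The list of the BTLA ligand and other inhibitory receptors had 14 tested genes, of which 4 were higher and 0 lower at an unadjusted p under 0.05 (31.8% of all genes in either direction), and 0 of either with the offset (21.3% of all genes). Tnfrsf14, which encodes its ligand HVEM, gave 8, 2 and 4 reads in Bahd1-WT mice and 2, 31 and 14 in Bahd1-KO mice (log2 fold change 1.81, unadjusted p = 0.0260, edgeR). The groups overlapped, as Bahd1-KO replicate 1 was within the Bahd1-WT range. Ptpn6, the SHP-1 phosphatase, had a log2 fold change of 0.88 and, with the offset, 0.17. Among the other inhibitory receptors, Lag3, which binds MHC class II, was at 0.77 and at -0.52 with the offset, so that its direction depended on that correction. Ltb, the lymphotoxin beta gene, was at 1.91 on 2 to 42 counts per library, and at 0.25 with the offset. Tnfrsf14 had a log2 fold change of 1.1099 with the offset (unadjusted p = 0.0981).

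Among 9 SRC family kinases and their regulators, 3 were higher and 2 lower at an unadjusted p under 0.05 (31.8% of all genes), and 0 with the offset (21.3% of all genes). Src had a log2 fold change of 1.41, and of 0.12 with the offset. Csk, which inhibits the family, was at a mean of 8.88 CPM in Bahd1-WT and 25.2 CPM in Bahd1-KO brains, with 40.6 CPM in replicate 2 against 14.0 and 20.9 CPM in the others, and its log2 fold change was 0.08 with the offset. Yes1 had a log2 fold change of -0.60, and of -0.15 with the offset. Ptprc, the leukocyte phosphatase CD45, was at 6.85 ± 0.980 CPM in Bahd1-WT and 3.78 ± 1.18 CPM in Bahd1-KO brains (SD, n = 3), a log2 fold change of -0.86, and of -0.26 with the offset.

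Among 9 tested homing genes, 2 were higher and 1 lower at an unadjusted p under 0.05 in edgeR's test, against 31.8% of all genes. The higher ones were Selplg, a selectin ligand (log2 fold change 1.74), and Itgb7, an integrin chain (1.44). With the offset Selplg was at 1.69 and Itgb7 at 0.24. Of the 10 tested NK and cytotoxic cell genes, 1 was lower at an unadjusted p under 0.05, against 31.8% of all genes, which was Gzma, a granzyme (0.137 CPM in Bahd1-WT and 0.0594 CPM in Bahd1-KO brains, with an unadjusted p of 0.110 under the offset), and the median log2 fold change was 0.14.

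**Figure D4:**
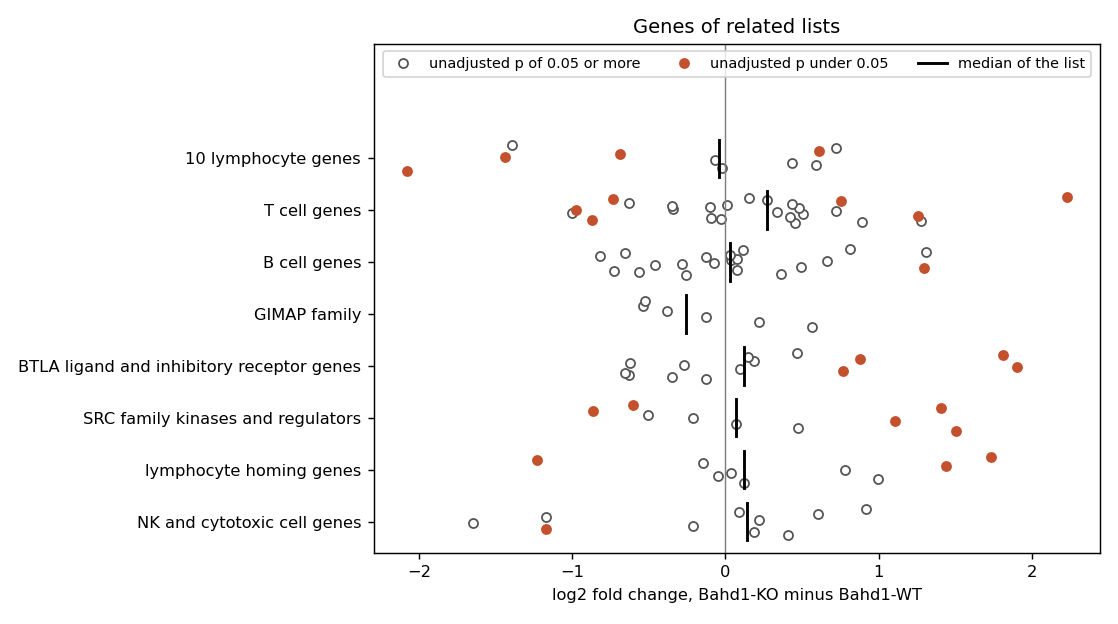
Log2 fold change (horizontal axis, Bahd1-KO minus Bahd1-WT) of every tested gene in 8 lists (rows). Filled points have an unadjusted p under 0.05 in edgeR's test, open points do not, and black bars are the medians. The medians lie between -0.25 (GIMAP family) and 0.27 (T cell genes), and Btla at -2.08 is the lowest point of all.

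Markers of other cells are given as sums over each list, and their counts at an unadjusted p under 0.05 stand against 31.8% of all genes. The 9 pan-leukocyte markers had 3 higher and 2 lower genes at an unadjusted p under 0.05, and their sum was 77.2 to 85.9 CPM in Bahd1-WT and 88.6 to 118 CPM in Bahd1-KO libraries. Coro1a, an actin-binding protein of leukocytes with a GC content of 58.0%, had the largest part in that gap (10.7 CPM in Bahd1-WT and 28.4 CPM in Bahd1-KO brains; log2 fold change 1.41, and 0.22 with the offset), while 5 of the 9 genes were lower and the median log2 fold change was -0.09. The 10 microglia markers summed to 341 to 406 and 335 to 384 CPM, and the 10 endothelial markers to 241 to 263 and 246 to 283 CPM. Of the neutrophil markers, 3 of 9 tested were lower and 2 higher, with sums of 7.81 to 9.41 against 2.11 to 7.72 CPM, lower without overlap. The 9 dendritic cell and monocyte markers summed to 29.1 to 30.9 and 26.7 to 32.9 CPM, mostly from Siglech, which microglia also express, and Flt3, so that the sum says little of those cells. Of 8 tested, 1 was lower (Ccr2, 0.815 CPM in Bahd1-WT and 0.394 CPM in Bahd1-KO brains) and 1 higher (Batf3, 0.0607 and 0.257 CPM), neither of them under the threshold with the offset. The 4 members that form the antigen receptor complexes, Cd3e, Cd3g, Cd79a and Cd79b, summed to 0.436 to 0.645 CPM in Bahd1-WT and 0.391 to 0.829 CPM in Bahd1-KO brains, ranges that overlap, unlike those of Btla. The part of any of these cells in the Btla difference was not tested.

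Over the 6 libraries, the 5 genes whose log2 CPM was most like that of Btla were Gm43039, A230057D06Rik, Fam160a2, D930036K23Rik and Nsmaf, with Pearson correlations of 0.994 to 0.997 among 16059 genes of at least 0.5 CPM. None of them is on the lists above, and 661 genes had a correlation above 0.9, as the points share 6 libraries and 2 groups.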

How the data were processed

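RNA of one hemisphere per mouse was sequenced in 3 Bahd1-WT and 3 Bahd1-KO mice, which were grouped by the labels. According to the paper and the submitters' processing notes, the authors trimmed reads with cutadapt 1.11, aligned them to GRCm38 with STAR 2.5.0a (the supplementary methods also name Tophat2) and counted reads on exons with featureCounts 1.4.6-p3, with the setting -s 1 beside a TruSeq Stranded kit. Which alignment made the table and whether that setting matches the strand of the kit are uncertain. The deposited values are whole-number counts per gene, with no normalization or filter by the authors. The table holds 0 columns of other samples.

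As in the study, a gene was tested when its 6 counts summed to 10 or more, which left 23975 genes. The main test was edgeR 4.0.16 (TMM factors, quasi-likelihood, genotype as the only factor, two-sided, Benjamini-Hochberg over all genes) in R 4.3.3, with 0.05 as the threshold. Standard errors and 95% intervals come from that fit, and CPM uses TMM-normalised library sizes. For the offset, log2 CPM in each library was regressed on natural splines of GC content (5 degrees of freedom) and of log length (3), using 13283 genes with a mean log2 CPM above 1 and GENCODE M21 (GRCm38) transcripts. Of the 10 genes, only Ighm (mean 25.4 CPM) and Gimap6 (9.60 CPM) were above that level. The others had means of 0.0596 to 0.935 CPM, so their offset carries over a trend fitted on more abundant genes. DESeq2 1.42.0 was an alternative. Scripts were tested on simulated counts.

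Named genes were the 10 members, Bahd1, and, from each pathway list, genes with an unadjusted p under 0.05 or otherwise the 3 of highest mean CPM, and the 5 genes most like Btla (Pearson correlation of log2 of CPM + 0.1). Cd3d, Igkc, Ighd, Gm48719, Mir8119, Cd247, Cd4, Ebf1, Coro1a, Siglech, Flt3, Ccr2 and Batf3 were added after their values were seen, and some genes that the rule names are not reported here. The members and lists were chosen with earlier results of these data known. The labels do not say whether mice shared litters or were processed together, so p-values measure the spread between these samples, which may in part be technical. The floor of 3 counts covers counting error only, and reads without molecular identifiers are not independent molecules.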

Additional observations from a re-analysis of the deposited data

How the results depend on the processing

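Depth limits Cd3e, Cd3g, Cd79a, Cd79b and Ms4a1, which had 0 to 19 reads per library. Of 21 alternatives, 4 were chosen after the data were seen: leaving out Bahd1-WT replicates 1 and 2, leaving out Bahd1-WT replicate 1 with Bahd1-KO replicate 2, DESeq2 with the prior and the offset, and robust shrinkage. Btla and Gimap4 kept their direction in every fit that tested them, and neither was tested under a minimum of 1 CPM in 3 samples. The main values are 0 of the 10 genes called, 4 at an unadjusted p under 0.05, 6 lower, and 2 genes called in all. The cause of the moves below was not tested.

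Without scaling beyond total counts, 2 of the 10 were called, the number of all genes called was 2253, and the Btla log2 fold change was -2.0014. DESeq2 called 3 and 4107 with the prior (Btla -1.84), and 3 and 4112 without it (Btla -2.07). Without the filter on low counts 2 and 3611 were called (Btla -2.07). With a minimum of 1 CPM, Ighm and Gimap6 alone of the 10 were tested, 2 at an unadjusted p under 0.05 and 1 lower. The offset gave 4 genes called in all, and DESeq2 with prior and offset 2 of the 10 and 2124 in all (Btla -1.03). Leaving out Bahd1-WT replicates 1 and 2 left 1 of the 10 at an unadjusted p under 0.05 and 1 gene called in all, and leaving out Bahd1-WT replicate 1 with Bahd1-KO replicate 2 gave 1 of the 10 and 1301 in all (Btla -1.81, edgeR adjusted p 0.0458). Over fits that left out 1 library, 0 to 4 of the 10 were called, 2 to 5 had an unadjusted p under 0.05, 0 to 7113 genes were called in all, and Btla lay between -2.27 and -1.94. The highest counts came without Bahd1-KO replicate 1.

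Replicate numbers did not pair the samples: same-numbered samples correlated at -0.477, -0.527 and -0.108 in their deviations from the group means, and no sample correlated best with its own number. With the replicate block 2 of the 10 had an unadjusted p under 0.05, 0 were called, 7 genes were called in all, and Btla was at -2.05 (edgeR adjusted p 0.122). With block and offset 9 genes were called in all.

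Signs turned for Cd3e, Cd79b, Cd79a and Gimap5, and for Lag3, which was at 0.77 before the offset. The Cd3e log2 fold change was 0.0005 with DESeq2 size factors, 0.0511 with total counts, 0.0013 and 0.0017 with DESeq2 with and without the prior, 0.0571 with the block, 0.3211 with the offset, 0.3812 with both, 0.1208 with DESeq2 and offset, 1.2248 without Bahd1-WT replicates 1 and 2, 0.5853 without Bahd1-WT replicate 1 and Bahd1-KO replicate 2, and between -0.3881 and 0.5177 without 1 library. The Cd79b log2 fold change was 0.0109 with total counts, 0.1032 and 0.0601 without those pairs of libraries, and between -0.3214 and 0.1530 without 1 library. The Cd79a log2 fold change was -0.2927 with the offset, -0.0777 with offset and block and -0.0801 with DESeq2 and offset. The Gimap5 log2 fold change was 0.0721, 0.1018 and 0.0384 in these, 0.8892 and 0.0208 without the pairs, and between -0.4591 and 0.1275 without 1 library. The Lag3 log2 fold change was -0.5220, -0.5446 and -0.4461 with the offset, with offset and block, and with DESeq2 and offset.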
